A study of Mus musculus with 12 samples.

Results

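The hypoxia response and glucose transport genes described here are 10 mouse genes, Hif1a, Egln3, Bnip3, Ankrd37, Pdk1, P4ha1, Vegfa, Slc2a1, Slc2a3 and Slc16a3, chosen by name out of the 25078 genes in the count table, and all 10 were found. They were read in donor T cells sorted from the liver of BALB/c mice on day 6 after hematopoietic cell transplantation (HCT). These recipients, called WT in the labels, had first received a lethal dose of radiation. Their graft held WT C57BL/6 bone marrow depleted of T cells, plus T cells from 1 of 3 kinds of C57BL/6 donor. The first kind was WT. The second was STAT3ko, which carries Stat3 fl/fl and CD4-Cre, so that Stat3 is deleted in CD4+ and CD8+ T cells alike. The third was STAT3ko PD-1ko, which has the same Stat3 deletion and lacks PD-1 from the germline. A group with PD-1 loss alone was not analysed here. CD4+ and CD8+ donor cells were sequenced separately, which gave 6 groups of 2 libraries, 12 in all, and each library combined cells from 3 recipients. The comparisons asked how loss of STAT3, and then of PD-1 in addition, changed the RNA of these genes in cells that had reached a target tissue of graft-versus-host disease (GVHD). The total was 21676125 to 24551477 counts per library, and all 10 genes passed the filter on low counts in every fit, Bnip3 in each subset only through its STAT3ko PD-1ko libraries.

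Cells sense oxygen through the hypoxia-inducible factors. An alpha subunit such as the product of Hif1a is made continuously, is marked by prolyl hydroxylases while oxygen is present and is then destroyed through the VHL ubiquitin ligase, so much of its control acts on the protein, which RNA counts do not read. When the alpha subunit persists it pairs with ARNT and binds a short DNA element in front of genes for glucose uptake, glycolysis, lactate export, mitophagy and vessel growth. Activated T cells use several of the same genes at normal oxygen, because they take up glucose through GLUT1 and GLUT3 and export lactate.

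The element bound by the HIF dimer has the core ACGTG or GCGTG. The test was passed upward in at least 1 comparison by 3 genes. Bnip3 among them reached the filter only through its STAT3ko PD-1ko libraries and could pass upward only. The windows below are shown because they belong to these 3 genes. Each is the 250 bases before the RefSeq start site (GRCm38.p6), 5′ to 3′ on the strand of the gene, with every ACGTG or GCGTG on either strand in capitals (CACGT and CACGC when read on the other strand). They lie at chr7:138909507-138909756 (minus strand) for Bnip3, at chr12:54203875-54204124 (minus strand) for Egln3 and at chr11:120948817-120949066 (plus strand) for Slc16a3.
Bnip3: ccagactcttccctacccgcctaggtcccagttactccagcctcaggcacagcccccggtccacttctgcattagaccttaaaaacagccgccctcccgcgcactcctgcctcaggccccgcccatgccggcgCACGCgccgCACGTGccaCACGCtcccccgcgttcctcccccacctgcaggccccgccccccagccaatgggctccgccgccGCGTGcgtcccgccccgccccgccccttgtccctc
Egln3: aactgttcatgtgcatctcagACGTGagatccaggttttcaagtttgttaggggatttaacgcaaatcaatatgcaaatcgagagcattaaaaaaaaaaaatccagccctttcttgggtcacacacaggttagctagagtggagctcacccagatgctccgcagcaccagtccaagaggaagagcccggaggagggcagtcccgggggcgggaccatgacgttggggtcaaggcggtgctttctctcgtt
Slc16a3: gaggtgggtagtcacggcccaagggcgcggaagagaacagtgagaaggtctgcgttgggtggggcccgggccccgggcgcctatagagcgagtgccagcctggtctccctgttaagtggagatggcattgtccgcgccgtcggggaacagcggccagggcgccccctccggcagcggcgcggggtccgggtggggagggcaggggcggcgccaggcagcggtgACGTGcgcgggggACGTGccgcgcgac

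The Bnip3 window held 5 matches, of which 2 are the same CACGTG palindrome read on both strands, a motif that other factors bind too. The Slc16a3 window held 2 matches, both ACGTG, at positions -27 and -14 from the start site. The Egln3 window held 1 match, at position -229. Of all 32851 windows of this length in the table, 38.6% held at least 1 match and 16.7% held at least 2. RefSeq windows were given for 9 of the 10 genes, Slc2a3 being the exception, and 9 of their 11 windows held a match, with at least 1 in each gene. A match is a description of the letters and does not show that a factor binds there. Vegfa and Pdk1 each have 2 windows and a match in only 1 of them. The Vegfa window at the gene start of the count table held no match, and its 2 matches lie at another start site. The start sites used for Slc16a3 and Hif1a also differ from the gene starts in the count table.

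The libraries were first checked against their labels, in counts scaled by library size with the trimmed mean of M values (TMM), written CPM. Stat3 was at 362 and 466 CPM in WT CD4+ cells, 138 and 164 in STAT3ko and 157 and 222 in STAT3ko PD-1ko. Stat3 in CD8+ cells was at 396 and 387 in WT, 148 and 136 in STAT3ko and 154 and 238 in STAT3ko PD-1ko, so every deleted library lay under every WT library. Between STAT3ko and WT the log2 fold change of Stat3 was -1.46 in both subsets, which did not pass by edgeR's quasi-likelihood test (Benjamini-Hochberg adjusted p = 0.055 and 0.108) and passed by DESeq2 (adjusted p = 1.99e-07 and 3.692e-09). It also passed with a replicate block in CD4+ cells (edgeR adjusted p = 0.00197) and with no filter in both subsets (edgeR adjusted p = 0.00263 and 0.00108). Pdcd1, which encodes PD-1, was at 55.1 and 26.3 CPM in STAT3ko PD-1ko CD4+ cells against 242 and 235 in WT, and at 94 and 66.5 against 375 and 309.7 in CD8+ cells. Both deletions therefore showed as lower and not absent RNA, and whether the remaining reads came from transcripts that lack part of the gene was not tested. Cd4 was at 1256 to 1888 CPM in the CD4+ libraries and at 0.355 to 2.78 in the CD8+ libraries.

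Markers of T cells (Cd3d, Cd3e, Cd3g, Cd2, Thy1 and Lck) summed to 4082 to 5433 CPM per library, with Thy1 the most abundant and none at 0. The sum was lower in STAT3ko PD-1ko CD8+ libraries (4082 and 4186 CPM) than in WT CD8+ libraries (5404 and 5433), and Cd8a was at 597 and 598 CPM against 1188 and 1349. In CD4+ libraries the sum was 4417 and 4350 CPM in STAT3ko PD-1ko against 5104 and 4875 in WT, again without overlap, and 1 of the 6 markers, Cd2, passed downward (edgeR's quasi-likelihood test, Benjamini-Hochberg adjusted p = 0.045). In STAT3ko PD-1ko CD8+ cells 3 of the 6 passed downward against WT and 2 against STAT3ko, and all 6 were lower without overlap both times. Of all tested genes 5.65%, 8.21% and 8.05% passed downward in these 3 comparisons. In the 2 CD8+ comparisons 59.8% and 63% of all tested genes did not overlap in either direction. Markers of hepatocytes summed to 1.44 to 5.26 CPM, led by Trf, with 1.55 and 2.02 in STAT3ko CD8+ and 3.37 and 5.26 in STAT3ko PD-1ko CD8+ libraries, a comparison in which Trf passed upward (edgeR's quasi-likelihood test, Benjamini-Hochberg adjusted p = 0.0486). As a sum, erythroid markers reached at most 0.562 CPM, with only Alas2 above 0. Macrophage markers, led by Cd68, summed to 30.1 and 39.8 CPM in WT CD8+ and 17.9 and 19.6 in STAT3ko PD-1ko CD8+ libraries. Neutrophil markers, led by Mmp9, summed to 14.4 and 23.1 CPM in WT CD4+ and 0.778 and 1.25 in STAT3ko PD-1ko CD4+ libraries. Mmp9 alone was at 13.8 and 21.9 CPM in those WT libraries, and only 1 of the 7 genes was tested. B cell markers, led by Cd79b, summed to 14.7 and 10.8 CPM in WT CD8+ and 6.12 and 5.38 in STAT3ko PD-1ko CD8+ libraries. Cd79b alone was at 14.5 and 10.7 CPM in those WT libraries, and only 1 of the 5 genes was tested. The endothelial list was carried by Pecam1 (111 to 195 CPM), which T cells also express. Its member Egfl7 was at 0.357 and 0.253 CPM in WT CD4+ and 1.17 and 1.97 in STAT3ko PD-1ko CD4+ libraries, and at 1.15 and 0.885 against 4.97 and 5.59 in CD8+ libraries (edgeR adjusted p = 0.0206 and 0.00651), and in CD4+ cells it reached the filter only through its STAT3ko PD-1ko libraries and could pass upward only. Of this endothelial list 2 genes were tested in CD4+ and 4 in CD8+ cells. Egfl7 was the only 1 of them with a log2 fold change over WT above 0 in STAT3ko PD-1ko in each subset. The median over the 4 in CD8+ cells was -0.22. Erythroid reads showed no order by genotype. The part of the other lists' differences in the results was not tested.

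Compared on a scale that also divides by exon length (RPKM), the 10 genes spanned a wide range. Hif1a, the alpha subunit of HIF-1, stood highest at 85 to 202 RPKM. The glucose transporters followed, with Slc2a3 (GLUT3) at 36.5 to 77.3 and Slc2a1 (GLUT1) at 24.2 to 41.4 RPKM, and their ranges overlapped. Pdk1, the kinase that holds pyruvate dehydrogenase inactive, was at 6.62 to 10.7 RPKM. Egln3, Ankrd37, P4ha1 and Slc16a3 lay between 1.4 and 10.6 RPKM with ranges that overlapped, although Slc16a3 was above P4ha1 in each of the 12 libraries. Bnip3 was at 0.122 to 0.939 RPKM, or 5 to 36 counts per library, and Vegfa at 0 to 0.379 RPKM.

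**Figure D1:**
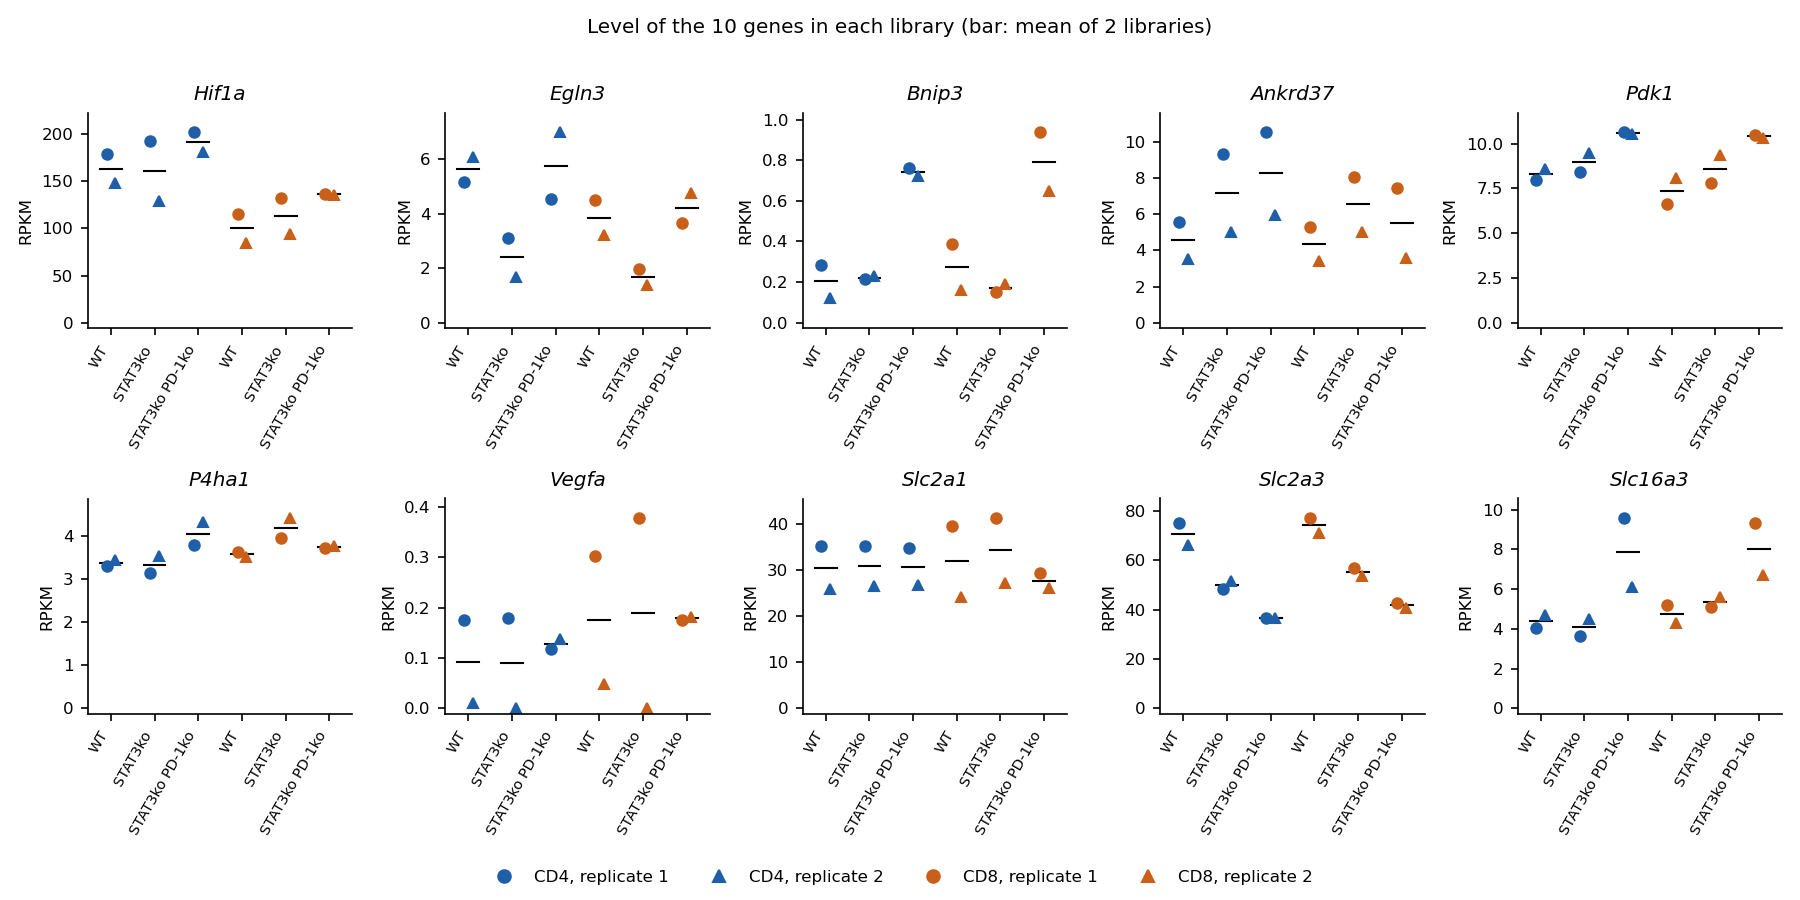
Level of each of the 10 genes in RPKM (linear axis from 0) in every library, by genotype, with CD4+ cells in blue and CD8+ cells in orange, circles for replicate 1, triangles for replicate 2 and bars for the mean of 2 libraries. Slc2a3 steps down from WT (66.3 to 77.3 RPKM) through STAT3ko (48.2 to 57.0) to STAT3ko PD-1ko (36.5 to 42.8) in both subsets, and Bnip3 is highest in STAT3ko PD-1ko.

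As compared with WT T cells, STAT3ko PD-1ko T cells had less Slc2a3 RNA in both CD4+ and CD8+ cells. Slc2a3 (mm10, chromosome 6, 122727809 to 122742745, minus strand) encodes GLUT3, a high-affinity glucose transporter. In CD4+ cells it was at 292 and 259 CPM in WT, 189 and 203 in STAT3ko and 139.8 and 142 in STAT3ko PD-1ko. In CD8+ cells the corresponding values were 301 and 280.4, 221 and 210.1, and 164 and 158 CPM. The 3 genotypes did not overlap in either subset, and their order was the same, with WT highest and STAT3ko PD-1ko lowest. In these bulk samples, fewer cells expressing a gene and less RNA of it per cell cannot be told apart.

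Between STAT3ko PD-1ko and WT, the log2 fold change of Slc2a3 was -0.97 ± 0.14 (SE, 2 libraries per group) in CD4+ cells (edgeR's quasi-likelihood test, Benjamini-Hochberg adjusted p over all genes = 0.00834). The CD8+ value was -0.85 ± 0.11 (edgeR's quasi-likelihood test, Benjamini-Hochberg adjusted p = 0.00541). The CD4+ call was lost without either STAT3ko PD-1ko library (edgeR adjusted p = 0.0745 and 0.0875), and the CD8+ call without STAT3ko PD-1ko replicate 2 (edgeR adjusted p = 0.0593). Leaving out a library of a compared group leaves that arm with a single library, which is then assumed to vary like the other groups. Over all genes such fits called 62 to 676 between STAT3ko PD-1ko and WT in CD4+ and 111 to 1107 in CD8+ cells, and 0 to 1185 and 2 to 1194 between STAT3ko PD-1ko and STAT3ko, against 1538, 2066, 1324 and 2017 with all libraries. STAT3ko alone differed from WT by -0.49 ± 0.14 in CD4+ and -0.43 ± 0.11 in CD8+ cells on the log2 scale, which did not pass after adjustment (edgeR's quasi-likelihood test, Benjamini-Hochberg adjusted p = 0.252 and 0.276), although DESeq2 called the CD8+ difference (adjusted p = 0.0251). STAT3ko PD-1ko differed from STAT3ko by -0.42 ± 0.11 in CD8+ cells (edgeR adjusted p = 0.0381), a call that was lost when any of the 6 CD8+ libraries was left out (edgeR adjusted p = 0.0533 to 0.165) and with only the 4 libraries compared (edgeR adjusted p = 0.0531). The same difference in CD4+ cells was -0.47 ± 0.14 and did not pass (edgeR adjusted p = 0.0708), although it passed by DESeq2 (adjusted p = 0.0187) and with a replicate block (edgeR adjusted p = 0.0232). Comparisons that name the same genotype share its libraries.

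The other glucose transporter of the list, Slc2a1 (mm10, chromosome 4, 119108745 to 119137329, plus strand), which encodes GLUT1, the transporter induced when T cells are activated, did not follow this pattern. In CD4+ cells it was at 88.6 and 65.4 CPM in WT, 89.7 and 67.8 in STAT3ko and 86.7 and 67.4 in STAT3ko PD-1ko. In CD8+ cells the values were 100.1 and 62.1, 104 and 69.4, and 73.3 and 65.8 CPM. The genotypes overlapped in both subsets, and replicate 1 was the higher library in all 6 groups. The log2 fold change of STAT3ko PD-1ko over WT was 0.00 in CD4+ cells, with a 95% interval from -0.52 to 0.52, and its sign changed with the scaling. The CD8+ value was -0.22, with a 95% interval from -0.84 to 0.40 (edgeR's quasi-likelihood test, Benjamini-Hochberg adjusted p = 0.601). With a replicate block the values were 0.01 ± 0.11 (SE) in CD4+ and -0.18 ± 0.15 in CD8+ cells (edgeR adjusted p = 0.978 and 0.413), against SEs of 0.22 and 0.26 without it.

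Bnip3, a mitochondrial outer-membrane protein that recruits the autophagy machinery to mitochondria, was higher in STAT3ko PD-1ko cells, at a low level. Bnip3 (mm10, chromosome 7, 138890836 to 138909506, minus strand) had 11 and 5 counts in WT CD4+ libraries, 8 and 9 in STAT3ko and 30 and 31 in STAT3ko PD-1ko. In CD8+ cells it had 15 and 7 counts in WT, 6 and 8 in STAT3ko and 36 and 27 in STAT3ko PD-1ko. All 4 STAT3ko PD-1ko libraries lay above all 8 others. A gene that reaches the filter only through its high group could pass the test in 1 direction only, and with a minimum of 10 counts in every library Bnip3 was not tested. Over WT, the log2 fold change was 1.85 ± 0.48 (SE) in CD4+ cells (edgeR's quasi-likelihood test, Benjamini-Hochberg adjusted p = 0.045) and 1.52 ± 0.50 in CD8+ cells, which did not pass (edgeR adjusted p = 0.0793). Over STAT3ko it was 2.18 ± 0.53 in CD8+ cells (edgeR adjusted p = 0.0349) and 1.71 ± 0.47 in CD4+ cells, which did not pass (edgeR adjusted p = 0.0596). With a replicate block those differences that had not passed did so, over WT in CD8+ cells (edgeR adjusted p = 0.0455) and over STAT3ko in CD4+ cells (edgeR adjusted p = 0.0286). Each call was lost when any of the 4 libraries compared was left out (edgeR adjusted p = 0.0631 to 0.237 in CD4+ cells and 0.121 to 0.133 in CD8+ cells). Without WT CD4+ replicate 1 the CD4+ value was 2.56 on the log2 scale, and DESeq2 gave the CD4+ comparison an adjusted p of 0.0927. The CD8+ value over WT ranged from 1.00 to 2.24 when 1 library was left out. An antisense gene and a processed pseudogene (Gm45507 and Gm18258) overlap Bnip3 in GENCODE M21, so that reads of this low-count gene may be shared with them.

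Slc16a3 encodes MCT4, a monocarboxylate transporter that exports lactate from glycolytic cells, and it was higher in STAT3ko PD-1ko cells. Slc16a3 (mm10, chromosome 11, 120948484 to 120959000, plus strand) was at 10.2 and 11.9 CPM in WT CD4+ cells, 9.37 and 11.5 in STAT3ko and 24 and 15.4 in STAT3ko PD-1ko. Slc16a3 in CD8+ cells was at 13.1 and 11 CPM in WT, 12.8 and 14.4 in STAT3ko and 23.3 and 17.1 in STAT3ko PD-1ko. WT and STAT3ko overlapped in both subsets, and the STAT3ko PD-1ko libraries lay above both. The log2 fold change over WT was 0.74 ± 0.21 in CD8+ cells (edgeR's quasi-likelihood test, Benjamini-Hochberg adjusted p = 0.049) and 0.83 ± 0.26 in CD4+ cells, which did not pass (edgeR adjusted p = 0.0798) except by DESeq2 (adjusted p = 0.0364) and with a replicate block (edgeR adjusted p = 0.0445). The CD8+ call was lost when any of the 6 CD8+ libraries was left out (edgeR adjusted p = 0.0547 to 0.219) and under 4 of 8 alternatives, with DESeq2's size factors (edgeR adjusted p = 0.052), by limma on log2(RPKM + 0.1) and log2(RPKM + 1) (adjusted p = 0.0574 and 0.0628) and with only the 4 libraries compared (edgeR adjusted p = 0.0552). Over STAT3ko the values were 0.92 ± 0.26 in CD4+ and 0.57 ± 0.21 in CD8+ cells (edgeR adjusted p = 0.0648 and 0.0976). The CD4+ difference from STAT3ko passed by DESeq2 (adjusted p = 0.0175), with a replicate block (edgeR adjusted p = 0.033) and with no filter (edgeR adjusted p = 0.0398).

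Egln3, a prolyl hydroxylase that marks HIF alpha subunits for destruction and is itself a HIF target, had another pattern, in which the STAT3ko libraries were low and the STAT3ko PD-1ko libraries stood with WT. Egln3 (mm10, chromosome 12, 54178981 to 54203874, minus strand) was at 13.6 and 16 CPM in WT CD4+ cells, 8.26 and 4.49 in STAT3ko and 11.8 and 18.4 in STAT3ko PD-1ko. In CD8+ cells the values were 11.8 and 8.57, 5.15 and 3.71, and 9.5 and 12.5 CPM. The STAT3ko libraries did not overlap with the other genotypes in either subset, and WT and STAT3ko PD-1ko overlapped in both. STAT3ko PD-1ko exceeded STAT3ko by 1.31 ± 0.28 (SE) on the log2 scale in CD8+ cells (edgeR's quasi-likelihood test, Benjamini-Hochberg adjusted p = 0.0232). That call was lost without STAT3ko replicate 2 (edgeR adjusted p = 0.11) and without either STAT3ko PD-1ko library (edgeR adjusted p = 0.0525 and 0.146). In CD4+ cells the difference was 1.24 ± 0.34 and did not pass (edgeR adjusted p = 0.0582), although it passed by DESeq2 (adjusted p = 0.00701), with a replicate block (edgeR adjusted p = 0.0304) and with no filter (edgeR adjusted p = 0.0212). STAT3ko differed from WT by -1.22 ± 0.34 in CD4+ and -1.20 ± 0.28 in CD8+ cells, which did not pass by edgeR (adjusted p = 0.244 and 0.255) and passed by DESeq2 (adjusted p = 0.0372 and 0.0162).

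**Figure D2:**
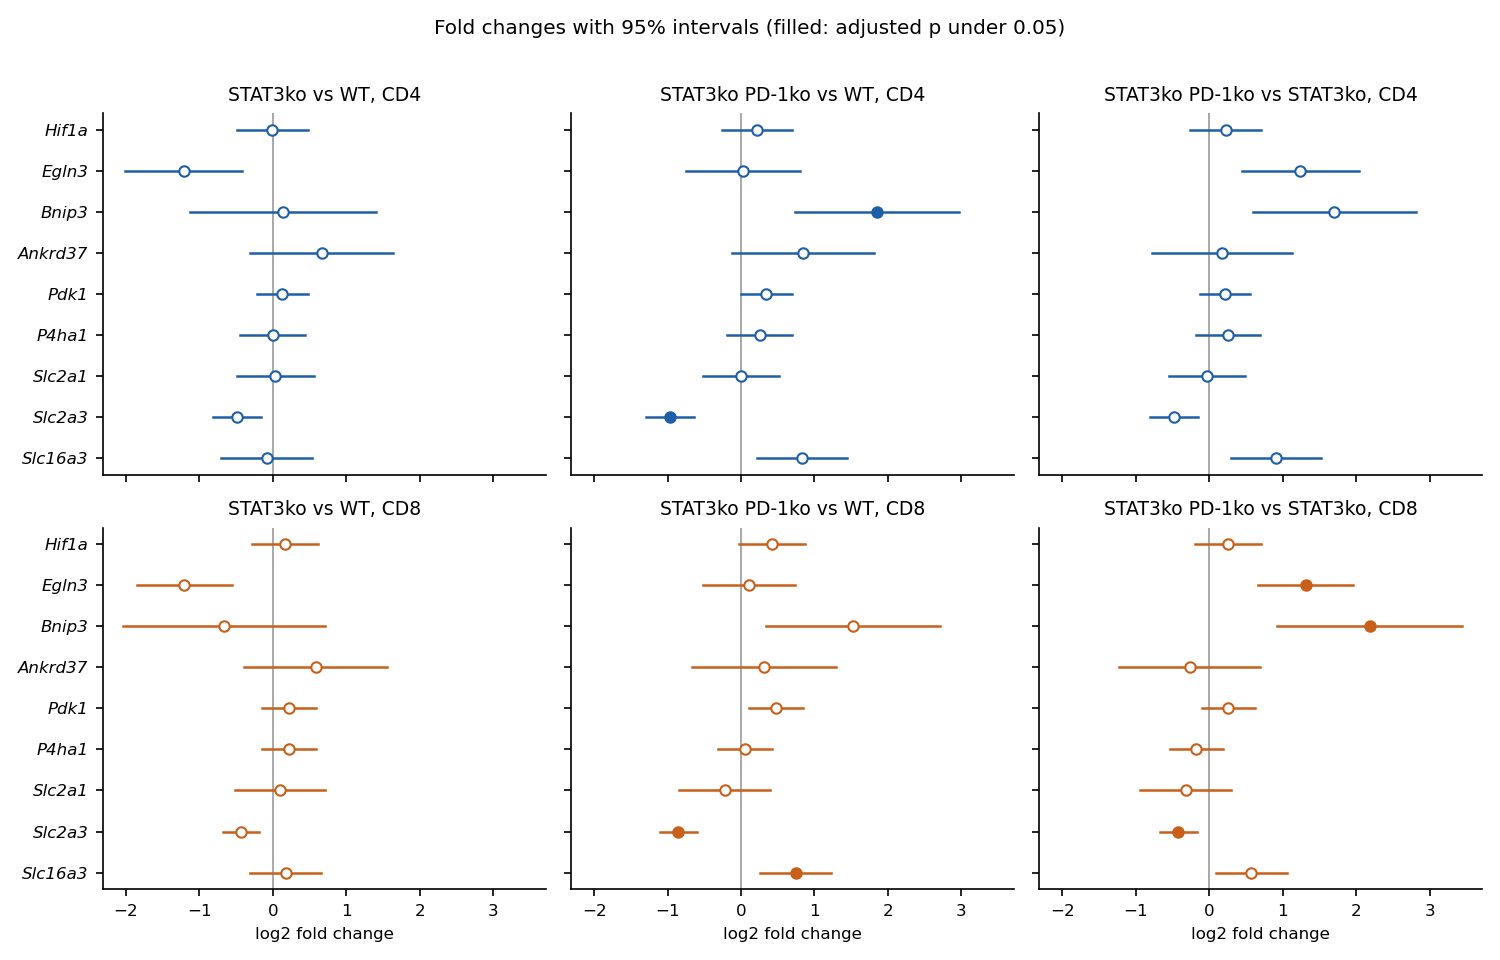
Log2 fold changes of 9 of the 10 genes (points) with their 95% intervals (lines) in the 3 genotype comparisons, CD4+ cells in the upper row and CD8+ cells in the lower row, filled where the adjusted p was under 0.05. Vegfa is left out because 2 of its libraries had 0 counts. Slc2a3 lies to the left of 0 in all 6 panels, and no gene is filled in the STAT3ko against WT panels.

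Over the 10 genes, none passed between STAT3ko and WT in CD4+ or CD8+ cells by edgeR, where 0.334% and 0.0583% of all tested genes passed. At an unadjusted p under 0.05 there were 2 in each subset, Egln3 and Slc2a3, both lower, where 10.5% and 11% of tested genes had such a p. DESeq2 called 1 in CD4+ and 2 in CD8+ cells, where it called 2.27% and 1.86% of genes. Against WT, STAT3ko PD-1ko cells had 2 of 10 that passed in CD4+ cells (Bnip3 higher and Slc2a3 lower) against 12.9% of 11959 tested genes. In CD8+ cells 2 of 10 passed (Slc16a3 higher and Slc2a3 lower) against 17.2% of 12002. For STAT3ko PD-1ko against STAT3ko, none of 10 passed in CD4+ cells by edgeR, against 11.1% of tested genes, with 4 at an unadjusted p under 0.05 (29.4% of tested genes) and 3 by DESeq2 (17.5%). With a replicate block 4 of 10 passed there (Bnip3, Egln3 and Slc16a3 higher and Slc2a3 lower), against 26% of tested genes. In CD8+ cells 3 of 10 passed (Egln3 and Bnip3 higher and Slc2a3 lower) against 16.8%. Bnip3 could pass upward only, and with at least 10 counts in every library 8 of the genes were tested, of which 1 passed over WT in CD4+ cells (12.2% of tested genes) and 2 over STAT3ko in CD8+ cells (17.6%). With 10 genes, the edgeR counts lie near the background share. The DESeq2 counts between STAT3ko and WT (1 and 2 of 10) lie above their shares (2.27% and 1.86%), a gap that was not tested. The libraries of the compared groups did not overlap for 2 of 10 genes between STAT3ko and WT in CD4+ cells (38.1% of tested genes) and 3 in CD8+ cells (43.4%). For STAT3ko PD-1ko and WT they did not overlap for 7 in CD4+ (59%) and 6 in CD8+ cells (59.8%), and between STAT3ko PD-1ko and STAT3ko for 6 in CD4+ (59%) and 7 in CD8+ cells (63%). The median log2 fold change of the 10 genes between STAT3ko PD-1ko and WT was 0.30 in CD4+ and 0.21 in CD8+ cells, and that of all tested genes was -0.01 and -0.00.

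Hif1a, Pdk1 and P4ha1 did not pass edgeR's test between genotypes in either subset. Hif1a (mm10, chromosome 12, 73901324 to 73947554, plus strand) was at 868 and 723 CPM in WT CD4+ cells, 948 and 636 in STAT3ko and 972 and 879 in STAT3ko PD-1ko. In CD8+ cells it was at 564 and 421 CPM in WT, 644 and 461 in STAT3ko and 658 and 660.2 in STAT3ko PD-1ko. The STAT3ko PD-1ko libraries lay above WT in both subsets, with log2 fold changes of 0.22 ± 0.21 and 0.42 ± 0.19 (edgeR's quasi-likelihood test, Benjamini-Hochberg adjusted p = 0.53 and 0.171), while STAT3ko overlapped with WT. Pdk1 (mm10, chromosome 2, 71873224 to 71903858, plus strand) was at 43.2 and 46.9 CPM in WT CD4+ cells, 46.2 and 52.1 in STAT3ko and 57 and 57.2 in STAT3ko PD-1ko. Pdk1 in CD8+ cells was at 36 and 44.5, 42.3 and 51.3, and 56.1 and 56.2 CPM. Pdk1 was again highest in STAT3ko PD-1ko, by 0.34 ± 0.15 and 0.48 ± 0.16 over WT on the log2 scale (edgeR adjusted p = 0.175 and 0.0744). The CD8+ difference of Pdk1 passed under 2 of 8 alternatives, DESeq2 (adjusted p = 0.0387) and edgeR with a replicate block (adjusted p = 0.0344).

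P4ha1, the catalytic subunit of a collagen prolyl 4-hydroxylase (mm10, chromosome 10, 59323296 to 59373304, plus strand), was at 12.8 to 18.1 CPM over the 12 libraries. Its log2 fold change of STAT3ko PD-1ko over WT was 0.25 ± 0.19 in CD4+ and 0.05 ± 0.16 in CD8+ cells (edgeR's quasi-likelihood test, Benjamini-Hochberg adjusted p = 0.423 and 0.857). Ankrd37, a small ankyrin-repeat protein known as a HIF target (mm10, chromosome 8, 45996908 to 45999850, minus strand), was at 4.96 and 3.17 CPM in WT CD4+ cells, 8.39 and 4.49 in STAT3ko and 9.25 and 5.3 in STAT3ko PD-1ko. Ankrd37 in CD8+ cells was at 4.7 and 3.1, 7.13 and 4.53, and 6.52 and 3.19 CPM. In CD4+ cells STAT3ko PD-1ko exceeded WT by 0.84 ± 0.41 on the log2 scale (edgeR adjusted p = 0.231). Within each replicate number the STAT3ko PD-1ko library of CD4+ cells was the higher one, and with a replicate block the difference was 0.82 ± 0.21 (edgeR adjusted p = 0.0226). Ankrd37 overlaps Ufsp2 on the opposite strand. The study's methods name a stranded kit and the labels another kit, and use of strand in counting is not given in the sources used here, so whether reads of the pair were counted apart is not known.

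Vegfa, the growth factor that drives vessel formation (mm10, chromosome 17, 46016993 to 46032377, minus strand), was close to the limit of detection. It had 16 and 1 counts in WT CD4+ libraries, 16 and 0 in STAT3ko and 11 and 14 in STAT3ko PD-1ko. In CD8+ cells it had 28 and 5, 36 and 0, and 16 and 18 counts. WT and STAT3ko each held 1 library with counts and 1 with few or none, so no fold change is given.

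The spread between libraries of a group followed the replicate number for several of the genes. Ankrd37 and Slc2a1 were higher in replicate 1 than in replicate 2 in all 6 groups, as were 8.28% of the 12334 genes tested over 12 libraries. The mean of replicate 1 was 1.72 times that of replicate 2 for Ankrd37 and 1.36 times for Slc2a1. Hif1a was higher in replicate 1 in 5 of 6 groups, by 1.23 times on average. Pdk1 was lower in replicate 1 in all 6 groups, as were 11.3% of genes, with a mean 0.911 times that of replicate 2. Slc2a3, Egln3 and Slc16a3 showed no such order, with replicate 1 higher in 4, 3 and 3 groups. The labels number the replicates without saying what libraries of the same number share.

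**Figure D3:**
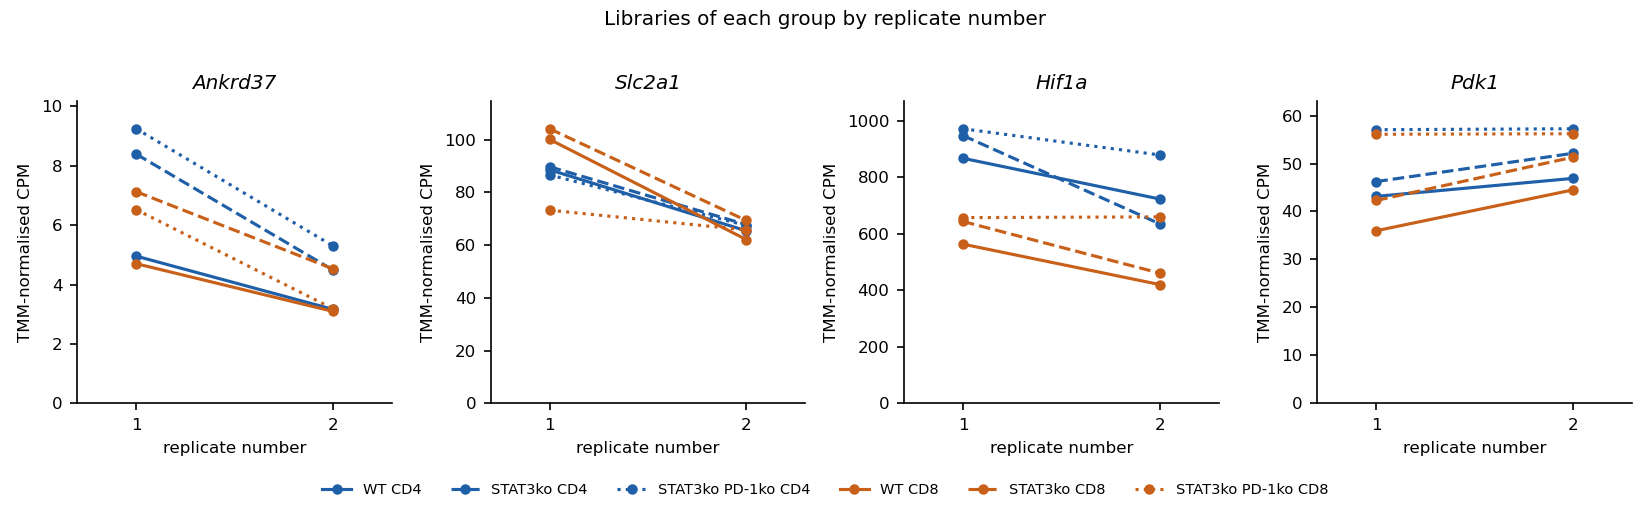
TMM-normalised CPM (linear axis from 0) of Ankrd37, Slc2a1, Hif1a and Pdk1 in replicate 1 and replicate 2 of each of the 6 groups, with a line joining the 2 libraries of a group, CD4+ in blue and CD8+ in orange. All 6 lines fall for Ankrd37 and Slc2a1, 5 of 6 fall for Hif1a, and all 6 rise for Pdk1.

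Between subsets, Hif1a had lower values in CD8+ than in CD4+ cells, with log2 differences of -0.71 ± 0.23 (SE) in WT, -0.53 ± 0.23 in STAT3ko and -0.50 ± 0.23 in STAT3ko PD-1ko. None passed by edgeR's quasi-likelihood test on all 12 libraries without pairing (Benjamini-Hochberg adjusted p = 0.0845, 0.203 and 0.352), and DESeq2 called the difference in WT (adjusted p = 0.0215). Per the study, the CD8+ cells came from the same livers as the CD4+ cells, and Hif1a was lower in the CD8+ library in 6 of 6 pairs of the same genotype and replicate number. With these pairs as a replicate block, chosen after seeing the data, the Hif1a differences were -0.72 ± 0.08, -0.52 ± 0.08 and -0.49 ± 0.08 and passed in each genotype (edgeR adjusted p = 0.000563, 0.00293 and 0.00604), where 24.3%, 24.9% and 14.4% of tested genes passed. In that fit Ankrd37 was also lower in CD8+ cells of STAT3ko PD-1ko, with a log2 difference of -0.61 ± 0.15 (edgeR adjusted p = 0.0305). Egln3 and Pdk1 had lower and Slc2a3 higher values in the CD8+ library in 6 of 6 pairs, and none of the 3 passed in that fit. The share of all tested genes with 1 order in all 6 pairs was not counted, so whether such an order is unusual is not known. With 1 block term for the replicate number shared by all genotypes, Hif1a passed in WT and STAT3ko (edgeR adjusted p = 0.00478 and 0.025) and not in STAT3ko PD-1ko (edgeR adjusted p = 0.0581). For Hif1a the WT and STAT3ko PD-1ko libraries of the 2 subsets did not overlap, while those of STAT3ko did. Without pairing, none of the other genes of the list passed between CD8+ and CD4+ cells in any genotype by edgeR, where 10.5%, 9.62% and 4.14% of tested genes passed in WT, STAT3ko and STAT3ko PD-1ko. At an unadjusted p under 0.05 there was 1 gene in WT, 1 in STAT3ko (Hif1a both times) and 0 in STAT3ko PD-1ko, where 22.1%, 22% and 14.7% of genes had such a p. The subsets did not overlap for 3 of 10 genes in WT (48.2% of tested genes), 4 in STAT3ko (47.4%) and 4 in STAT3ko PD-1ko (46.1%). The difference between subsets in the change from WT did not pass for any of the 10 genes by edgeR's interaction test, with or without pairs, or by DESeq2. Without pairs 0% and 0.00811% of genes passed for STAT3ko and STAT3ko PD-1ko, and 0 of the 10 had an unadjusted p under 0.05 (1.85% and 4.43% of genes). For Slc2a3 the CD8+ change from WT minus the CD4+ change was 0.13 in STAT3ko PD-1ko, with a 95% interval from -0.23 to 0.48.

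Of the glycolytic enzymes, 9 of 18 tested rose over WT in STAT3ko PD-1ko CD4+ cells and 9 of 19 in CD8+ cells, and the others did not pass. This list and the further lists below were chosen with earlier results of these data known. The enzyme list ran from hexokinase to lactate dehydrogenase, and 0 of its enzymes were lower, where 7.21% and 9.01% of all tested genes were higher and 5.65% and 8.21% lower. Between STAT3ko and WT 0 passed by edgeR (0.334% and 0.0583% of all genes) or DESeq2 (2.27% and 1.86%) in either subset, with 2 in CD4+ and 1 in CD8+ cells at an unadjusted p under 0.05 (10.5% and 11%). The enzymes' median log2 fold change there was -0.18 in CD4+ and -0.09 in CD8+ cells, against 0.01 and -0.01 over all tested genes. In CD4+ cells 12 of 18 enzymes were lower without overlap and 2 higher, where 38.1% of all tested genes did not overlap in either direction. In CD8+ cells 3 of 19 were lower and 1 higher (43.4%). Eno3, the muscle-type enolase, was at 8.13 and 10.2 CPM in WT CD4+, 8.07 and 7.07 in STAT3ko CD4+ and 25.4 and 25.9 in STAT3ko PD-1ko CD4+ cells. In CD8+ cells Eno3 was at 32.5 and 33.7, 23.9 and 25, and 77.4 and 79.2 CPM. Tpi1, triose-phosphate isomerase, was at 101 and 86 CPM in WT CD4+, 107 and 83.8 in STAT3ko CD4+ and 268 and 274 in STAT3ko PD-1ko CD4+ cells. In CD8+ cells Tpi1 was at 128 and 121, 138 and 115, and 311 and 326 CPM. For both genes the STAT3ko PD-1ko libraries stood above the rest of their subset. STAT3ko lay under WT for Eno3 and overlapped with it for Tpi1.

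Against WT, Tpi1 had log2 fold changes of 1.53 ± 0.18 in CD4+ and 1.35 ± 0.13 in CD8+ cells (edgeR's quasi-likelihood test, Benjamini-Hochberg adjusted p = 0.00443 and 0.00259). Eno3 had 1.48 ± 0.20 and 1.24 ± 0.12 (edgeR adjusted p = 0.0069 and 0.00247), Pfkl 1.05 ± 0.17 in CD4+ cells (edgeR adjusted p = 0.0109) and Eno1 0.79 ± 0.12 in CD8+ cells (edgeR adjusted p = 0.00922). Over STAT3ko, 9 of 18 and 9 of 19 enzymes were higher, among them Aldoa in CD4+ cells (0.91 ± 0.14, edgeR adjusted p = 0.0124) and Ldha in CD8+ cells (1.03 ± 0.12, edgeR adjusted p = 0.00469), where 6.05% and 8.76% of all tested genes were higher and 5.03% and 8.05% lower. The median log2 fold change of the enzymes over WT was 0.61 in CD4+ and 0.75 in CD8+ cells, against -0.01 and -0.00 over all tested genes. The 9 calls over WT fell to 1 and 0 in CD4+ cells without STAT3ko PD-1ko replicates 1 and 2, to 3 and 2 without WT replicates 1 and 2, and to 2 in CD8+ cells without STAT3ko PD-1ko replicate 2 or WT replicate 2. The calls over STAT3ko fell to 0 without either STAT3ko PD-1ko library and to 6 without STAT3ko replicate 2 in CD4+ cells, and to 0 without STAT3ko PD-1ko replicate 2 and 3 without STAT3ko replicate 2 in CD8+ cells. Among the enzymes named, the CD4+ calls of Eno3, Pfkl and Aldoa were lost without either STAT3ko PD-1ko library (edgeR adjusted p = 0.0569 to 0.137), that of Tpi1 without replicate 2 (edgeR adjusted p = 0.0576), and the CD8+ calls of Eno1 and Ldha without STAT3ko PD-1ko replicate 2 (edgeR adjusted p = 0.072 and 0.0663). The Pfkl call was also lost without WT CD4+ replicate 2 (edgeR adjusted p = 0.0693) and that of Eno1 without WT CD8+ replicate 2 (edgeR adjusted p = 0.0525). Several of these enzymes, Gapdh, Pgk1, Aldoa, Eno1 and Ldha among them, have near-identical copies in the genome, and Gapdh was counted at 62 to 115 reads per library, so that their levels are uncertain. The end of Tpi1 overlaps that of Spsb2 on the opposite strand in GENCODE M21.

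Of 30 other genes known as hypoxia targets, 28 were tested in CD4+ and 25 in CD8+ cells. Against WT, STAT3ko PD-1ko CD4+ cells had 6 higher (Ndrg1, P4ha2, Ak4, Nos2, Fam162a and Car12) and 0 lower, where 7.21% of all tested genes were higher and 5.65% lower. CD8+ cells had 5 higher (Ndrg1, P4ha2, Fam162a, Car12 and Ak4) and 3 lower (Pfkfb3, Kdm4b and Kdm4c, named after their values were seen), where 9.01% of all tested genes were higher and 8.21% lower. Ndrg1, a stress-responsive gene of the NDRG family, was at 29.2 and 36.9 CPM in WT CD4+, 23.8 and 22.6 in STAT3ko CD4+ and 106 and 93.4 in STAT3ko PD-1ko CD4+ cells. In CD8+ cells Ndrg1 was at 52.6 and 52.6, 50.7 and 42.2, and 137 and 129.7 CPM. Its STAT3ko PD-1ko libraries exceeded WT by 1.59 ± 0.17 and 1.34 ± 0.13 on the log2 scale (edgeR's quasi-likelihood test, Benjamini-Hochberg adjusted p = 0.00408 and 0.00278), and both calls held under each of the 8 alternatives and without any 1 library. Ak4, a mitochondrial adenylate kinase, had 1 and 0 counts in WT CD4+, 2 and 0 in STAT3ko CD4+ and 20 and 16 in STAT3ko PD-1ko CD4+ libraries. P4ha2, another collagen prolyl 4-hydroxylase subunit, had 1 and 3 counts in WT CD8+, 3 and 0 in STAT3ko CD8+ and 32 and 49 in STAT3ko PD-1ko CD8+ libraries. Both were therefore nearly absent outside STAT3ko PD-1ko at this depth. Ak4, P4ha2 and Nos2 reached the filter only through their STAT3ko PD-1ko libraries and could pass upward only. With at least 10 counts in every library they were not tested, and the calls over WT were 3 in CD4+ and 6 in CD8+ cells (12.2% and 17.9% of all genes).

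Over STAT3ko, 5 of 28 of these targets were higher in CD4+ cells (Ndrg1, Car12, P4ha2, Ak4 and Nos2) and 0 lower. In CD8+ cells 5 of 25 were higher (Ndrg1, Car12, P4ha2, Ak4 and Angptl4) and 2 lower (Kdm4c and Hmox1), where the shares of all genes are those given for the enzymes. Car12, a membrane carbonic anhydrase, was at 6.16 and 7.73 CPM in WT CD4+, 3.34 and 3.29 in STAT3ko CD4+ and 12.3 and 19 in STAT3ko PD-1ko CD4+ cells, and STAT3ko was the lowest group in CD8+ cells too (6.31 and 4.41 CPM). Between STAT3ko and WT, 0 of the targets passed by edgeR in either subset, with 5 in CD4+ and 3 in CD8+ cells at an unadjusted p under 0.05 (10.5% and 11% of all genes) and 0 and 1 by DESeq2 (2.27% and 1.86%). The median log2 fold change of the tested targets over WT was 0.03 in CD4+ and 0.20 in CD8+ cells. With at least 10 counts in every library the calls over STAT3ko were 2 in CD4+ and 6 in CD8+ cells (10.6% and 17.6% of all genes). The 6 calls over WT in CD4+ cells fell to 1 without either STAT3ko PD-1ko library and 2 without either WT library. In CD8+ cells the 8 calls fell to 1 or 2 without any 1 of those 4 libraries. The 5 calls over STAT3ko in CD4+ cells fell to 2 and 0 without STAT3ko PD-1ko replicates 1 and 2 and to 3 without STAT3ko replicate 2, and the 7 in CD8+ cells to 0 to 4 without any 1 of the 4 libraries compared.

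**Figure D4:**
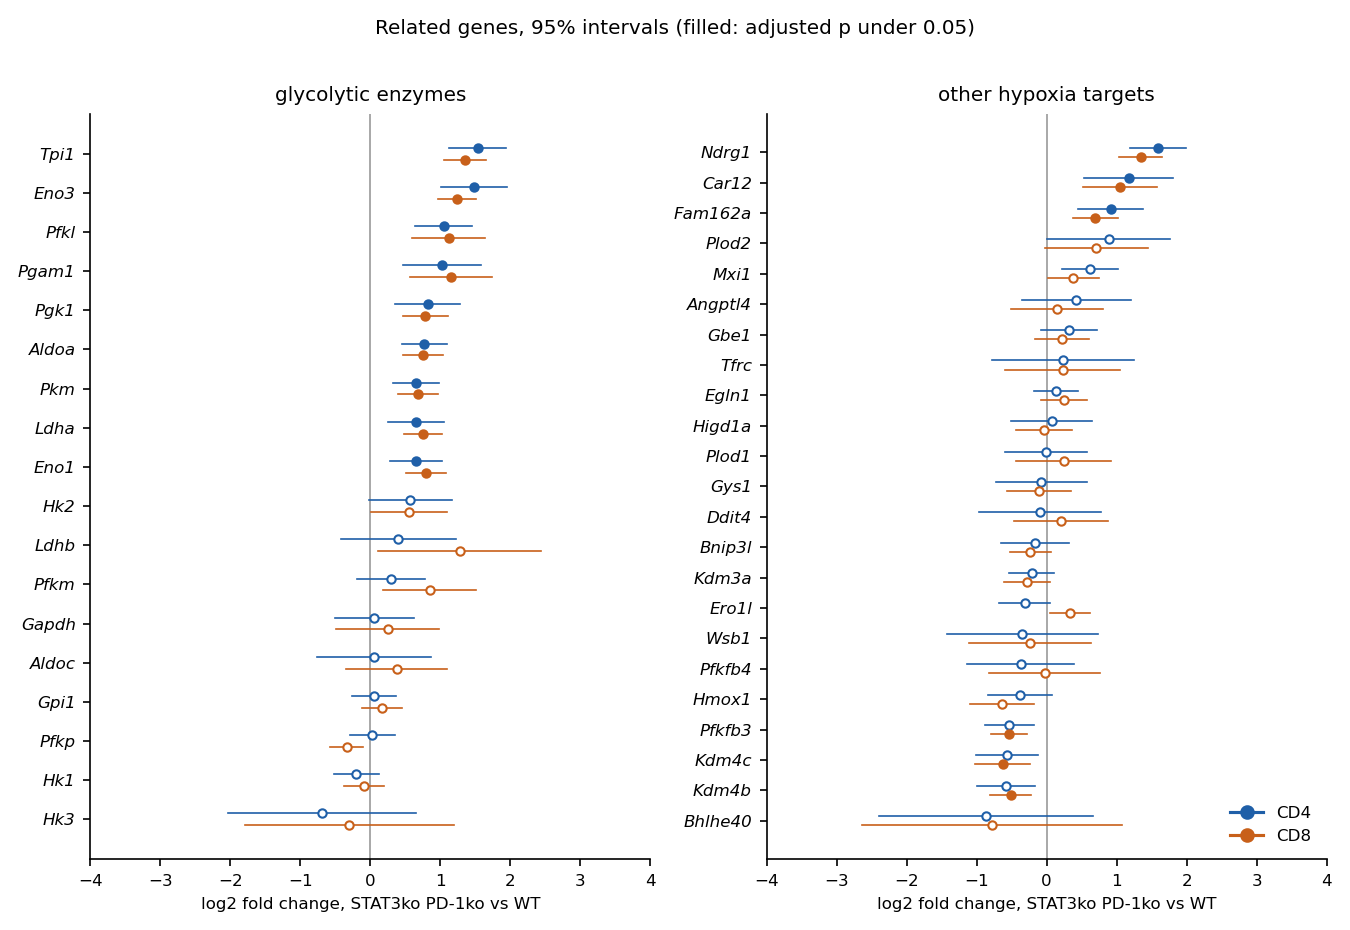
Log2 fold changes of STAT3ko PD-1ko over WT with 95% intervals for 18 glycolytic enzymes and 23 other hypoxia targets tested in both subsets, CD4+ in blue and CD8+ in orange, filled where the adjusted p was under 0.05. Ak4, Nos2 and P4ha2 are left out because control libraries had few or 0 counts. The same 9 enzymes are filled in both subsets, Tpi1 and Eno3 at the top, and Ndrg1 lies to the right of 0 in both subsets (1.59 and 1.34).

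Among 16 further genes of oxygen sensing, Epas1, which encodes the alternative alpha subunit HIF-2 alpha, was higher in STAT3ko PD-1ko than in WT in CD4+ cells (387 and 444 against 201 and 242 CPM) and in CD8+ cells (272 and 329 against 138 and 127 CPM). The log2 fold changes of Epas1 were 0.91 ± 0.16 and 1.18 ± 0.19 (edgeR's quasi-likelihood test, Benjamini-Hochberg adjusted p = 0.0131 and 0.0101), and STAT3ko was at 187 and 202 CPM in CD4+ and 169 and 118 in CD8+ cells. Arnt2, a relative of the HIF beta subunit, was lower in CD4+ cells of both deleted genotypes, at 6.43 and 7.22 CPM in WT, 0.603 and 0.712 in STAT3ko and 0.778 and 0.482 in STAT3ko PD-1ko. Its log2 fold change over WT was -3.36 ± 0.34 in STAT3ko (edgeR adjusted p = 0.0237) and -3.43 ± 0.34 in STAT3ko PD-1ko (edgeR adjusted p = 0.00321). Arnt2 had 3 to 16 counts in the CD8+ libraries. The CD4+ call of Epas1 was lost without either STAT3ko PD-1ko library or WT replicate 1 (edgeR adjusted p = 0.0646 to 0.118), and the CD8+ call without STAT3ko PD-1ko replicate 2 (edgeR adjusted p = 0.084). The STAT3ko call of Arnt2 was lost without WT replicate 2 or either STAT3ko PD-1ko library (edgeR adjusted p = 0.0719 to 0.0809) and with only the 4 libraries compared (edgeR adjusted p = 0.082), and the STAT3ko PD-1ko call without its replicate 2 (edgeR adjusted p = 0.0501). Cul2, the scaffold of the VHL ligase, was higher in STAT3ko PD-1ko CD8+ cells than in WT, by 0.44 ± 0.11 (edgeR adjusted p = 0.0368), a call lost without any 1 of the 6 CD8+ libraries (edgeR adjusted p = 0.0731 to 0.169), by limma on log2(RPKM + 1) (adjusted p = 0.0501), with no filter (edgeR adjusted p = 0.0628) and with only the 4 libraries compared (edgeR adjusted p = 0.0711). The other tested genes of the list, Vhl, Egln1, Egln2 and Arnt among them, did not pass against WT by edgeR.

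Among 11 further sugar transporters 3 were tested, and Slc2a8 (GLUT8) was higher in STAT3ko PD-1ko than in WT in CD8+ cells (30.6 and 38.2 against 18 and 19.2 CPM, edgeR adjusted p = 0.0186). That call was lost without STAT3ko PD-1ko replicate 2 or either WT library (edgeR adjusted p = 0.0655 to 0.104). Of 7 further genes of monocarboxylate transport 5 were tested, and Emb, which encodes embigin, a partner of monocarboxylate transporters, was lower in CD4+ cells, at 496 and 405 CPM in WT, 295 and 292 in STAT3ko and 148 and 201 in STAT3ko PD-1ko. Its log2 fold change over WT was -1.37 ± 0.19 in STAT3ko PD-1ko (edgeR's quasi-likelihood test, Benjamini-Hochberg adjusted p = 0.00697), and the call was lost without either STAT3ko PD-1ko library (edgeR adjusted p = 0.065 and 0.0515). None of the 10 tested genes of pyruvate dehydrogenase control besides Pdk1, and none of the further genes of the VEGF family (3 tested in CD4+ and 5 in CD8+ cells), passed between genotypes by edgeR. DESeq2 called 0 to 2 of the former and 0 of the latter in a comparison (1.86% to 23.3% of all genes over the 6 comparisons), and 1 to 4 and 0 to 2 had an unadjusted p under 0.05 (10.5% to 34.4%).

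Across the 12 libraries, which share groups, tissue and replicate numbers, the genes most like Slc2a3 on the scale log2(CPM + 0.5) were Acsbg1 and Tanc1 (Pearson r = 0.974 and 0.965). Those most like Slc16a3 were Abcd3 and Klhdc10 (r = 0.92 and 0.92), and those most like Bnip3 were Arxes2 and Psmg1 (r = 0.947 and 0.938). These are descriptions over 12 points in 6 groups and carry no test. Among the 10 genes themselves the highest positive correlation was that of Bnip3 and Slc16a3 (r = 0.821), and the strongest negative one was that of Pdk1 and Slc2a3 (r = -0.881).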

How the data were processed

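RNA was sequenced as 51 bp single-end reads. Per the study's methods, the authors aligned them to mm10 with STAR 2.7 and counted them over RefSeq genes with HTSeq-count 0.11. The deposited table holds these whole-number counts. The authors' second table holds RPKM, scaled by TMM in edgeR 3.32.1, and its implied library sizes were 0.942 to 1.02 times the count totals. The methods name a stranded library kit and the labels another kit, and use of strand in counting is not given in the sources used here. All columns mapped to a library.

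Here, counts were filtered with filterByExpr (minimum count 10, minimum total 15), scaled by TMM and tested with edgeR 4.0.16 (estimateDisp, glmQLFit, glmQLFTest; R 4.3.3). One fit held the 6 CD4+ libraries (11959 genes), one the 6 CD8+ libraries (12002 genes), and one all 12 (12334 genes) for comparisons between subsets. P-values were adjusted by Benjamini-Hochberg over all genes of a fit, and a gene passed at an adjusted p under 0.05. With 2 libraries per group, an exact permutation of 1 gene's values cannot reach a p under 0.333. Labels do not say whether the libraries of a group came from separate transplants, so p-values measure the spread between these libraries. RPKM served for levels between genes. All 10 genes were named, with up to 3 passing genes of smallest adjusted p per further list and comparison. For the other hypoxia targets every passing gene was named instead. The members and lists were chosen with earlier results of these data known. The gene names of 26 rows look like dates and were not used. The edgeR step was tested on simulated data. Alternatives were DESeq2 1.42.0, its size factors, other filters, limma 3.58.1 on log2(RPKM + 1) and log2(RPKM + 0.1), a replicate block, for comparisons between subsets also a block for each pair of the same genotype and replicate number (added after seeing the data, because the study took both subsets from the same livers; deviations of such libraries correlated with r = 0.629, 0.625 and 0.75 in WT, STAT3ko and STAT3ko PD-1ko), only the 4 libraries compared, a log2 fold change of at least 1, and leaving out each library. Promoter windows came from RefSeq, and figures were drawn with matplotlib 3.10.9.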

Additional observations from a re-analysis of the deposited data

Results flagged for a closer look

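P4ha1 moved in opposite directions between STAT3ko PD-1ko and STAT3ko in the 2 subsets, with log2 fold changes of 0.25 in CD4+ cells and -0.17 in CD8+ cells. It stands here because both STAT3ko PD-1ko libraries lay above both STAT3ko libraries in CD4+ cells (15.1 and 17.4 against 12.8 and 14.4 CPM) and under them in CD8+ cells (14.9 and 15.3 against 15.9 and 18.1 CPM). Neither difference passed edgeR's quasi-likelihood test (adjusted p = 0.403 and 0.469), and the difference between the subsets was not tested.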

How the results depend on the processing

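Of 32 fold changes given for the 10 genes, recomputed 465 times under the alternatives and without each library in turn, 456 kept their direction. The 9 that reversed were all Slc2a1. Between STAT3ko PD-1ko and WT in CD4+ cells its log2 fold change was -0.0133 by DESeq2 and with DESeq2's size factors, -0.0072 with no filter, -0.0097 with only the 4 libraries compared and -0.2128 to 0.2344 without 1 library, and in CD8+ cells -0.5443 to 0.1589 without 1 library. The 19 fold changes given for other genes kept their direction in all 266 repeats.

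Of the 10 genes, the number called between STAT3ko and WT was 1 (CD4+) and 2 (CD8+) by DESeq2, which called 2.27% and 1.86% of all genes. Between STAT3ko PD-1ko and WT in CD4+ cells it was 1 with at least 10 counts in every library (12.2% of all genes). It was 1 at a log2 fold change of at least 1 (7.53%), and it could fall when 1 library was left out. In CD8+ cells it was 1 with DESeq2's size factors (17.1% of all genes), 1 by limma on log2(RPKM + 0.1) (16.6%) and 1 with only 4 libraries (16.5%). It was 0 at a log2 fold change of at least 1 (6.59%), and it fell without any 1 library. Between STAT3ko PD-1ko and STAT3ko in CD4+ cells it was 3 by DESeq2 (17.5% of all genes) and 1 by limma with a pseudocount of 0.1 or 1 (10.9% and 10.7%). It was 2 with no filter (9.82%) and 1 with only 4 libraries (10.5%), and it could rise when 1 library was left out. In CD8+ cells the number called over STAT3ko fell without any 1 library. Between subsets in WT it was 1 by DESeq2 (12.3% of all genes) and 1 with no filter (7.88%), and it could rise when 1 library was left out.

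At a log2 fold change of at least 1, the glycolytic enzymes called numbered 4 over WT in CD4+ (7.53% of all genes) and 4 in CD8+ cells (6.59%). They numbered 3 over STAT3ko in CD8+ cells (6.62%). Without 1 library they numbered 0 to 10 and 2 to 10 over WT, and 0 to 9 and 0 to 10 over STAT3ko. Other hypoxia targets called over WT numbered 10 by DESeq2 (18.1% of all genes), 3 with at least 10 counts and 1 to 7 without 1 library in CD4+ cells. In CD8+ cells they numbered 4 at a log2 fold change of at least 1, 5 by limma on log2(RPKM + 1) and 1 to 8 without 1 library. Over STAT3ko they numbered 2 with at least 10 counts and 0 to 5 without 1 library in CD4+ cells, and 0 to 6 in CD8+ cells. The cause of these changes was not tested.

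The labels do not say what libraries of the same replicate number share. Their deviations from the group means correlated with r = 0.725, 0.352 and 0.213 in CD4+ and 0.733, 0.184 and 0.0464 in CD8+ cells. With a replicate block, 4 of the 10 genes were called between STAT3ko PD-1ko and WT in each subset (26% and 24.7% of all genes in CD4+ and CD8+ cells), 4 between STAT3ko PD-1ko and STAT3ko in CD4+ cells (26%), 1 between subsets in WT (16.3%) and 1 in STAT3ko (15.5%), so that calls over all genes rose as well. With a block for each pair of the same genotype and replicate number, the calls between subsets were 1, 1 and 2 in WT, STAT3ko and STAT3ko PD-1ko (24.3%, 24.9% and 14.4%). With the replicate block hypoxia targets called in CD4+ cells numbered 10 over WT (26% of all genes) and 9 over STAT3ko (26%). With 2 libraries per group, genes under about 10 counts per library rest on few reads.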
